A study of Homo sapiens with 4 samples.

Results

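The DNAJ genes encode the human J-domain cochaperones, a family also called HSP40. Members were taken as every gene in the deposited table whose symbol is DNAJA, DNAJB or DNAJC followed by a number and, where present, a final B, with repeated gene identifiers counted once. This gave 44 genes of 60609 in the table, 4 of class A, 13 of class B and 27 of class C. The 40 whose mean normalized count over all libraries reached 1 were tested. DNAJB3 and DNAJC28 had no reads in any library, and DNAJB8 and DNAJC5B lay below a mean of 1.

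The cells were CCRF-CEM, a long-established human line from a T cell acute lymphoblastic leukaemia. All of them, controls included, carried an HA-tagged AMPK alpha 2 subunit (genotype CCRF-CEM/HA-AMPKa2) and came from culture in RPMI with 10% FBS. The study compared cells kept for 24 hours in control medium (Ctrl, libraries CTRL_7 and CTRL_8) with cells kept as long in medium without glucose (No glucose, libraries ONG_9 and ONG_10). The labels do not say whether the line is 1 clone or whether the 2 libraries of a group came from separate cultures, so the p-values speak only to how far these 4 samples spread, and that spread may be technical.

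J-domain proteins bring client proteins to HSP70 chaperones and stimulate HSP70 to split ATP, which locks the client in place. Class A proteins keep the zinc-binding and glycine-rich parts of bacterial DnaJ, class B proteins keep the glycine-rich part and lack the zinc-binding part, and class C proteins share little besides the J domain. Some members are made all the time, whereas others belong to the heat shock response, in which heat shock factors bind repeats of GAA and TTC, or to the unfolded protein response of the endoplasmic reticulum.

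Recovered reads ranged from 19035535 to 96698709 per library, and CTRL_7 was the deepest by far. Of 9 T-lineage markers, 8 reached a mean normalized count of 50, and the summed level of the list was 58177 to 59116 in Ctrl and 58733 to 59035 in No glucose. Within that list CD3E (0.54) and CD247 (0.20) were called higher and CD3G (-0.45) and CD7 (-0.92) lower on the log2 scale. The summed B cell markers were 864 to 875 in Ctrl and 512 to 532 in No glucose, almost all from CD79A and CD79B. Myeloid markers summed to 23.4 to 29.4 and 31.8 to 40.7, with MPO at 0, and erythroid markers to at most 1.37, with HBB at 0. Adherent cell markers summed to 489 to 550 (549.8) in Ctrl and 415 to 441 in No glucose, nearly all from EPCAM, which was called lower (-0.33), while COL1A1 was called higher, at 2.06 and 2.68 in Ctrl and 7.58 and 25.3 in No glucose. Their part in the results below was not tested. In bulk RNA such as this, fewer cells of a type and less RNA per cell cannot be told apart. PRKAA2, the gene of the tagged subunit, read 409.4 and 409.3 in Ctrl and 670.2 and 662.3 in No glucose, and reads from the tagged copy and the cell's own copy cannot be told apart here.

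Without glucose, DNAJB1 and DNAJA4, both stress-inducible partners of cytosolic HSP70, rose 8.57-fold and 6.51-fold, and DNAJB2, DNAJB4, DNAJB9 and DNAJB5 rose by smaller amounts. The class A genes DNAJA1, DNAJA2 and DNAJA3 fell. Most class C genes that passed the test fell too, among them mitochondrial, splicing and ribosome-associated members. Of the 40 tested genes, 9 rose, 18 fell and 13 did not pass the test (limma with Benjamini-Hochberg adjustment over 27486 genes, threshold 0.05).

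Among all 27486 genes tested, 14.4% were called higher and 20.7% lower, 35.1% in all. A closer background for the family is the 10656 protein-coding genes whose mean normalized count reached 50, of which 18.9% were called higher and 47.2% lower, 66.0% in all. The family shares, 22.5% higher and 45% lower, were near that background, as was the count of 32 of 40 genes whose groups did not overlap (85.3% in that background, 66.8% in all genes tested). The family figures take all 40 tested members, of which DNAJB7, DNAJB13, DNAJC6, DNAJC12 and DNAJC22 lie under that mean of 50. The family's median log2 fold change was -0.13, against -0.20 for those protein-coding genes and 0.04 for all genes tested. Genes called higher with a log2 fold change of at least 1 were 4 of 40 in the family, 10.0%, against 2.50% of those protein-coding genes and 5.62% of all genes tested. By class the counts of higher and lower genes were 1 and 3 of 4 in class A, 5 and 1 of 11 tested in class B, and 3 and 14 of 25 tested in class C. Scaled to library totals instead, which moves the median of all genes from 0.04 to 0.23 and the share of higher genes among the calls from 40.9% to 61.5%, those counts were 1 and 3, 7 and 0, and 5 and 8. Without CTRL_7 they were 1 and 2, 5 and 0, and 0 and 7, and without CTRL_8 they were 1 and 3, 5 and 0, and 0 and 10.

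**Figure D1:**
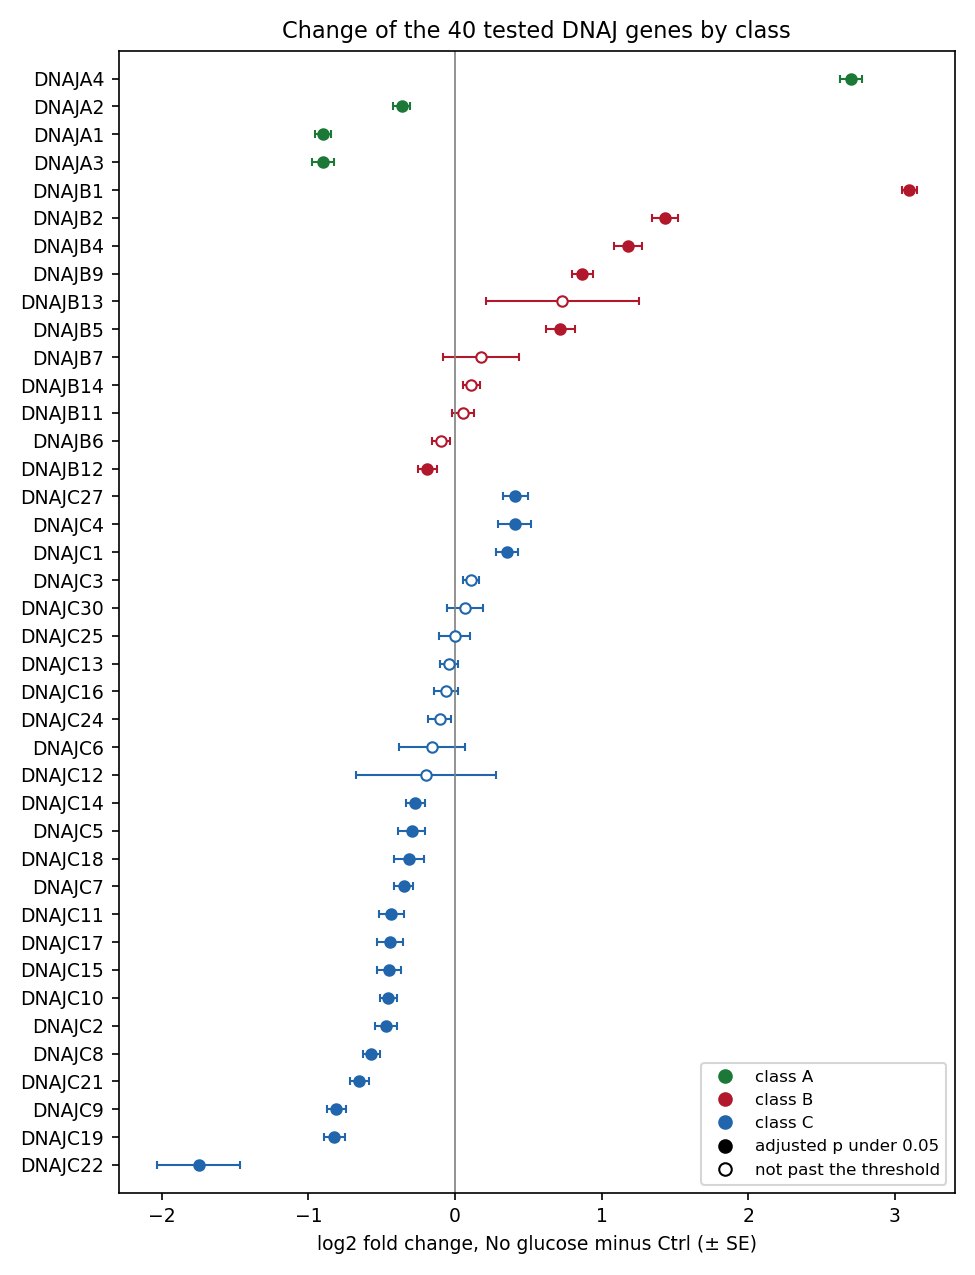
Log2 fold change of each of the 40 tested DNAJ genes, No glucose minus Ctrl, with the standard error from limma as bars and colours for classes A, B and C; filled points passed the adjusted p threshold of 0.05 and open points did not. DNAJB1 at 3.10 and DNAJA4 at 2.70 stand farthest to the right, and DNAJC22 at -1.75 farthest to the left.

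In class A, DNAJA1, DNAJA2 and DNAJA3 fell and DNAJA4 rose. DNAJA1 (chr9:33025211-33039907, plus strand, GENCODE 29 on hg38), a farnesylated cytosolic partner of HSC70, had 13290.1 and 13478 normalized counts in Ctrl and 7504 and 6859.9 in No glucose. Both No glucose libraries lay far below both controls, a log2 fold change of -0.90 ± 0.06 (SE, adjusted p = 4.1e-07). DNAJA2 (chr16:46955362-46973788, minus strand), its close relative in the cytosol, read 4535 and 4518 in Ctrl and 3625 and 3414 in No glucose. The groups were apart here as well, but by less, at -0.36 ± 0.06 (adjusted p = 0.00039), and without CTRL_7 the call was lost (adjusted p = 0.057).

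DNAJA3 (chr16:4425805-4456775, plus strand), the class A protein of the mitochondrial matrix, read 1009.9 and 1035 in Ctrl and 555 and 540.2 in No glucose. The groups did not overlap, and the log2 fold change was -0.90 ± 0.08 (adjusted p = 3.5e-06). DNAJA4 (chr15:78264086-78282196, plus strand), a heat-inducible cytosolic member, read 311 and 319.7 in Ctrl and 2036 and 2071 in No glucose. It was the class A gene that went the other way, by 2.70 ± 0.07 on the log2 scale (adjusted p = 3.5e-09).

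In class B, 5 genes rose and DNAJB1 rose most. DNAJB1 (chr19:14514770-14529770, minus strand), the best-known stress-inducible HSP40 and a heat shock factor target, read 2198 and 2168 normalized counts in Ctrl and 18839 and 18582 in No glucose. The pairs were tight within each group and far apart, a log2 fold change of 3.10 ± 0.05 (adjusted p = 1.4e-10). An exact permutation test of 2 libraries against 2 cannot go below p = 0.333, so the calls rest on the fit across all genes.

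The promoters of DNAJB1 and DNAJA4 are shown because these genes rose most and both carry the same pair of 8-base words. The stretches come from RefSeq (GRCh38.p14) and are written 5′ to 3′ on the strand of the gene, with matches to GAANNTTC in capitals, an inverted pair of the 5-base units that heat shock factors bind. DNAJB1 is at chr19:14518432-14518514, minus strand, 117 to 35 bases before a RefSeq start, and DNAJA4 at chr15:78264431-78264522, plus strand, 131 to 40 bases before one. These starts, like those of the other stretches shown, lie inside the longer GENCODE span of the gene and the stretches overlap none of its exons.
DNAJB1: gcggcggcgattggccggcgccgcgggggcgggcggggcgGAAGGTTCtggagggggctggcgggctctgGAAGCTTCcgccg
DNAJA4: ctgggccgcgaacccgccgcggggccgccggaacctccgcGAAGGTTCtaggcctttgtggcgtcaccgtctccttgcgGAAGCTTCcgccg

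Both GAAGGTTC and GAAGCTTC occurred in 5 of 35116 RefSeq windows of 250 bases before a start, 0.0142%, and these 2 genes are among the 5. The 2 words were chosen after they had been seen in these promoters, so this is a description of the sequences. The other window shown for a gene that rose is that of DNAJB4 (chr1:78004801-78004853, plus strand, 138 to 86 bases before a start), with a match to TTCNNGAA in capitals. The window of DNAJB6 (chr7:157336833-157336890, plus strand, 171 to 114 bases before a start) is shown because it was the family's one match to 3 alternating units in a row (in capitals), although DNAJB6 did not pass the test.
DNAJB4: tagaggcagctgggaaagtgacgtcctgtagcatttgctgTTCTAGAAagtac
DNAJB6: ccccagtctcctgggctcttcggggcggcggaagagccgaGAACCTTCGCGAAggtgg

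RefSeq windows were given for 39 of the 44 members. GAANNTTC or TTCNNGAA, each of which reads the same on both strands, was found in 7 of the family's 51 windows, 13.7%, against 11.6% of all windows. The form with 3 alternating units, each 2 bases from the next and on either strand, contains both shorter motifs and was in 0.441% of all windows. Among members with a window, the shorter motifs were in 3 of 8 genes that rose (DNAJA4, DNAJB1 and DNAJB4), 2 of 17 that fell (DNAJA1 and DNAJC15), 2 of 12 that did not pass the test (DNAJB6 and DNAJB7) and 0 of 2 that were not tested. A gene was counted if any of its windows matched. DNAJA4, DNAJB1 and DNAJB4 each had multiple windows, as did some genes that fell, and more windows give more chances of a match. These gene counts are not corrected for that. A match is not shown to be a binding site by these data, and genes without one lack only these letters in this window.

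DNAJB2 (chr2:219279267-219286900, plus strand), which joins a J domain to ubiquitin-binding motifs, read 610.4 and 581 in Ctrl and 1481 and 1754 in No glucose. Both No glucose values lay well above either control, a log2 fold change of 1.44 ± 0.09 (adjusted p = 4.0e-07). DNAJB4 (chr1:77979175-78017964, plus strand), a cytosolic relative of DNAJB1, read 387 and 437 in Ctrl and 996 and 876 in No glucose. The groups did not overlap, and the rise was 2.27-fold, with an SE of 0.10 on the log2 scale (adjusted p = 2.7e-06). DNAJB5 (chr9:34989641-34998900, plus strand), another cytosolic relative, read 349.7 and 305 in Ctrl and 555 and 522 in No glucose. Its rise was smaller, 0.72 ± 0.10 on the log2 scale (adjusted p = 0.00015).

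DNAJB9 (chr7:108569568-108574850, plus strand) makes ERdj4, which works with the HSP70 of the endoplasmic reticulum and restrains the stress sensor IRE1. It read 776 and 821 in Ctrl and 1449.5 and 1465 in No glucose. The groups were apart, at 0.87 ± 0.07 (adjusted p = 2.8e-06). DNAJB12 (chr10:72332830-72355230, minus strand), an endoplasmic reticulum membrane protein of the degradation pathway, read 1868 and 1846 in Ctrl and 1581 and 1677 in No glucose. It was the class B gene called lower, narrowly, at -0.19 ± 0.06 (adjusted p = 0.042), and the call was lost without CTRL_7 or CTRL_8 (adjusted p = 0.33 in each) and turned to 0.02 with library totals.

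**Figure D2:**
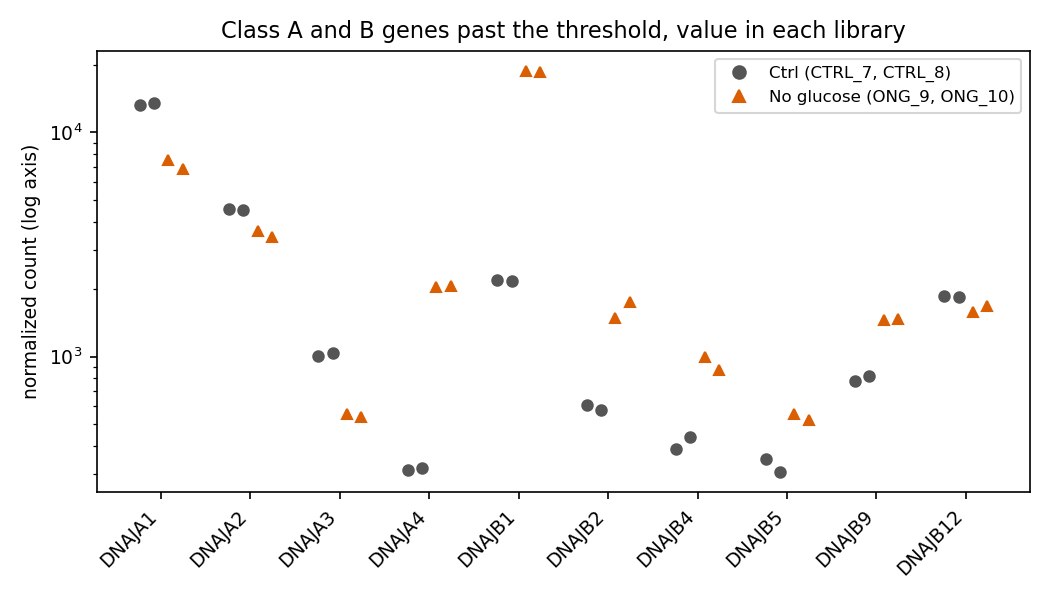
Normalized counts, on a log axis, in each of the 4 libraries for the class A and class B genes that passed the threshold; grey circles are CTRL_7 and CTRL_8 and orange triangles ONG_9 and ONG_10. DNAJB1 goes from 2198 and 2168 to 18839 and 18582, above DNAJA1, which goes from 13290.1 and 13478 to 7504 and 6859.9.

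The other 5 tested class B genes did not pass the test. DNAJB6, which holds aggregation-prone proteins in solution, had a log2 fold change of -0.10 ± 0.06. DNAJB11, which works with HSPA5 on secretory proteins, had 0.05 ± 0.07, and DNAJB14, a membrane relative of DNAJB12, had 0.11 ± 0.06. DNAJB7 and DNAJB13, both known from testis, were low. DNAJB7 read 25.4 to 32.3 in the 4 libraries, and DNAJB13 read 3.09 and 4.01 in Ctrl and 6.06 and 7.02 in No glucose, within a few reads of the floor of 3 reads, 4.01 to 4.55 normalized counts outside CTRL_7.

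In class C, 5 genes fell by 0.5 or more on the log2 scale. DNAJC8 (chr1:28199456-28233025, minus strand), a spliceosome-associated protein and the highest class C gene per kilobase of exon, read 6699.8 and 6632 in Ctrl and 4619.9 and 4368 in No glucose. The groups were apart, a log2 fold change of -0.57 ± 0.05 (adjusted p = 9.4e-06). DNAJC9 (chr10:73183362-73248862, minus strand), a chaperone of histones H3 and H4, read 1635 and 1653 in Ctrl and 934 and 943 in No glucose. Its fall, -0.81 ± 0.07 (adjusted p = 3.0e-06), was matched in size by that of DNAJC19.

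DNAJC19 (chr3:180983709-180989774, minus strand), part of the motor that pulls proteins into mitochondria, read 1244 and 1264 in Ctrl and 709.6 and 707 in No glucose. The log2 fold change was -0.82 ± 0.07 (adjusted p = 4.2e-06), with almost no spread within either pair. DNAJC21 (chr5:34929559-34958964, plus strand), which acts in the last steps of making the large ribosomal subunit, read 4416 and 4395 in Ctrl and 2939.9 and 2674 in No glucose. The fall was -0.65 ± 0.06 (adjusted p = 9.2e-06), and the groups did not overlap. DNAJC22 (chr12:49346917-49357546, plus strand) was a low gene, at 45.7 and 46.8 in Ctrl and 15.2 and 11.2 in No glucose. Its fall, -1.75 ± 0.29 (adjusted p = 0.00052), was the deepest of the family and had the widest error among the called genes.

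The other 9 class C genes that fell had log2 fold changes from -0.47 to -0.27. They were DNAJC2 (-0.47), which sits on the ribosome, DNAJC10 (-0.45), the disulfide reductase ERdj5, DNAJC15 (-0.45) and DNAJC11 (-0.43) of mitochondria, and DNAJC17 (-0.45), a splicing protein. DNAJC7 (-0.35), which hands clients between HSP70 and HSP90, DNAJC18 (-0.31), DNAJC5 (-0.30), the synaptic vesicle protein CSP alpha, and DNAJC14 (-0.27) completed them. Of these 9, DNAJC5, DNAJC7, DNAJC11, DNAJC14, DNAJC17 and DNAJC18 lost their call with library totals, where DNAJC14 was at -0.059 and DNAJC5 at -0.084. Without CTRL_7 the same 6 and DNAJC15 lost it, and without CTRL_8 DNAJC5, DNAJC11, DNAJC14 and DNAJC18 did. The rises were DNAJC27 (0.41), a small GTPase with a J domain, DNAJC4 (0.41) and DNAJC1 (0.35), an endoplasmic reticulum membrane protein. All 3 of these rises lost their call when CTRL_7 or CTRL_8 was left out.

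The 8 tested class C genes that did not pass had log2 fold changes from -0.20 to 0.11. Among them were DNAJC3 (0.11 ± 0.06), a cochaperone of the endoplasmic reticulum also known as an inhibitor of eIF2 alpha kinases, DNAJC13 (-0.04 ± 0.06) of endosomes, and DNAJC24 (-0.10 ± 0.08), which acts in making diphthamide. DNAJC6, DNAJC12, DNAJC16, DNAJC25 and DNAJC30 were the others. DNAJC12 was at 5.61 to 10.7 normalized counts and DNAJC6 at 37.9 to 50.5 in the 4 libraries.

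Members were also grouped by the compartment where their products are known to work. The lists are not complete, and the counts depend on which members were listed. In all, 21 members were placed in no compartment. Of the 18 of these that were tested, 7 rose and 6 fell, among them DNAJC4 (0.41), DNAJC14 (-0.27) and DNAJC18 (-0.31). Of 5 members listed as mitochondrial, 4 fell (DNAJA3, DNAJC19, DNAJC15 and DNAJC11) and DNAJC30 was at 0.07 ± 0.12, with a median of -0.45. With library totals 3 of the 5 were lower, and without CTRL_7 2 were. All 3 nuclear and splicing members (DNAJC8, DNAJC9 and DNAJC17) fell, with 2 called under library totals, and both ribosome-associated members (DNAJC2 and DNAJC21) fell. In the protein-coding background above, 47.2% of genes were called lower, so these small groups are given as counts only. The summed B cell markers were lower in the same libraries, as given above.

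The 9 members listed for the endoplasmic reticulum went in both directions. DNAJB9 and DNAJC1 rose, DNAJC10 and DNAJB12 fell and 5 did not pass, with a median of 0.05, but under library totals 5 were higher and 1 lower. Of the 3 tested endocytic and vesicle members, DNAJC5 fell and DNAJC6 and DNAJC13 did not pass. The call of DNAJC5 was lost without a control library, and under library totals none of the 3 was lower and DNAJC13 was called higher (0.17, adjusted p = 0.027).

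**Figure D3:**
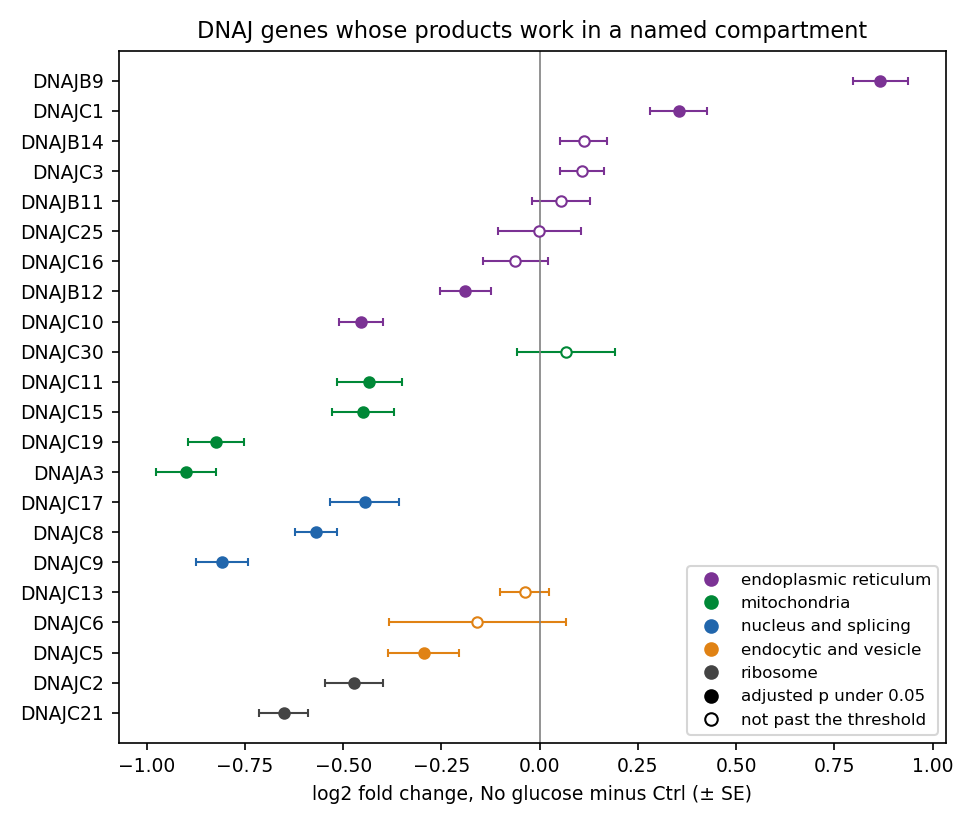
Log2 fold change, No glucose minus Ctrl, with the standard error as bars, of the tested DNAJ genes placed in a compartment, coloured by compartment; filled points passed the adjusted p threshold of 0.05. The 9 endoplasmic reticulum genes run from -0.45 (DNAJC10) to 0.87 (DNAJB9), and 4 of the 5 mitochondrial genes lie between -0.90 and -0.43.

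Levels of different genes were compared as normalized counts per kilobase of exon. The length of a gene was that of all its annotated exons together, not that of the transcripts present. The SDs below do not cover this choice. DNAJC10 had 6079 normalized counts in Ctrl, above DNAJA2 at 4527, but has 21835 bases of exon and came at rank 19. In Ctrl the order was DNAJA1 (4903 ± 48.6 per kilobase, SD, n = 2), DNAJC8 (2308 ± 16.6), DNAJA2 (894 ± 2.28), DNAJC5 (773 ± 28.8), DNAJC3 (639.9 ± 0.52) and DNAJB1 (594 ± 5.66), each apart from its neighbour by more than their SDs. In No glucose DNAJB1 came first (5095 ± 49.6), then DNAJA1 (2631 ± 167) and DNAJC8 (1556 ± 61.7). The next places, DNAJA2 (695 ± 29.5), DNAJC3 (690.1 ± 21.6) and DNAJC5 (634 ± 101), did not differ beyond their spread.

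The leading DNAJ mRNA per kilobase was DNAJA1 in Ctrl and DNAJB1 in No glucose. DNAJA1 held 29.4% and 30.0% of the family's per-kilobase signal in Ctrl and 15.3% and 14.5% in No glucose. DNAJB1 held 3.62% and 3.59% in Ctrl and 28.6% and 29.1% in No glucose. Between groups the shares of both genes differed by far more than within a group. By class, A went from 36.3% ± 0.44 to 21.1% ± 0.64, B from 14.3% ± 0.02 to 42.2% ± 0.43 and C from 49.4% ± 0.46 to 36.8% ± 0.21 (SD, n = 2). Without dividing by exon length, A went from 23.7% to 15.6%, B from 19.6% to 41.0% and C from 56.7% to 43.3%. On that scale the mean shares were 2.69% and 22.0% for DNAJB1 and 16.5% and 8.44% for DNAJA1.

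The family's summed level changed far less than its make-up. It was 16490 ± 61.8 per kilobase in Ctrl (16489.9) and 17635 ± 389 in No glucose (SD, n = 2). As a share of all recovered reads the family took 0.246% in both control libraries and 0.300% and 0.296% in ONG_9 and ONG_10. The pairs themselves were close for these genes. The median absolute log2 difference between the libraries of a pair was 0.05 in Ctrl and 0.11 in No glucose over the 40 tested members. Over all genes tested it was 0.17 and 0.24, but these include every gene with a mean of at least 1, and low counts spread more. The sets were not matched for level, so closeness of the pairs is not shown to be a trait of the family.

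**Figure D4:**
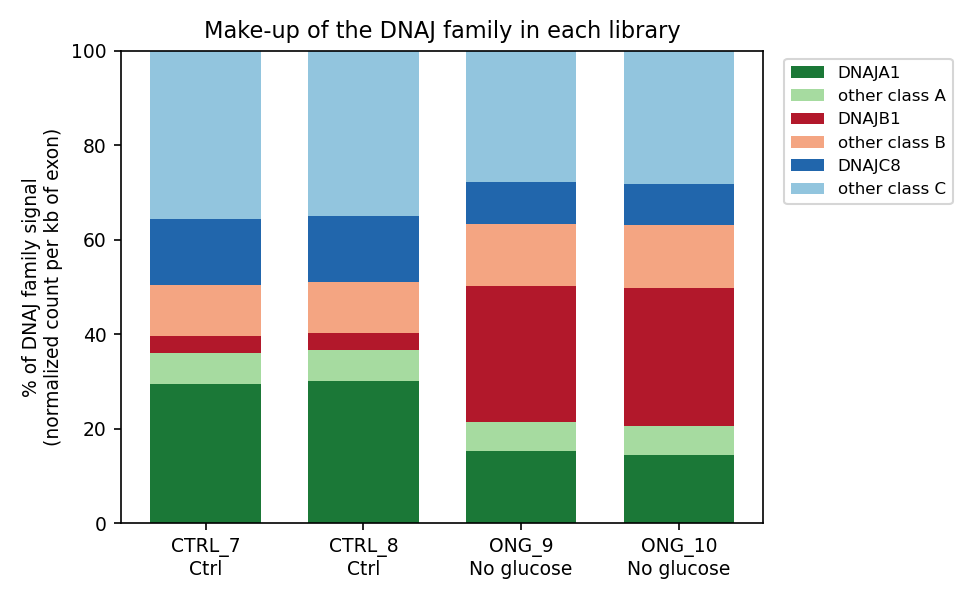
Stacked bars of the percentage of the DNAJ family's signal, in normalized counts per kilobase of exon, held by its leading genes and the rest in each of the 4 libraries. DNAJB1 fills 3.62% and 3.59% of the control bars and 28.6% and 29.1% of the No glucose bars, while DNAJA1 goes from 29.4% and 30.0% to 15.3% and 14.5%.

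J proteins act on HSP70 chaperones, whose cycle nucleotide exchange factors complete. Of the 10 tested HSP70 identifiers, 3 rose, 4 fell and 3 did not pass (4 higher and 2 lower with library totals), with a median log2 fold change of -0.13. In the protein-coding background 66.0% of genes were called, so 7 of 10 is near that share. One of the falls, HSPA12B (-0.86, adjusted p = 0.045), lost its call with library totals and whichever library was left out. HSPA6, a strictly inducible HSP70, had no reads in either control and 2481 and 2646 normalized counts in No glucose. The limit set by 3 reads in the controls together is 0.820 normalized counts, and HSPA6 was at least 3126-fold higher than that. HSPA1A, the main inducible HSP70, had no reads in either control and 42.5 and 77.2 in No glucose, at least 72.9-fold higher than the same limit. That value is uncertain, because HSPA1B, a near-identical copy, was at 0 in every library and the counting could have split or dropped reads shared by the 2.

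The other tested HSP70 genes moved less than HSPA6 and HSPA1A, and not all in the same direction. HSPA8, the constitutive cytosolic HSP70, had a log2 fold change of -0.18 ± 0.05, which was 0.03 with library totals and lost its call without a control library. HSPA9, the mitochondrial HSP70, fell by 0.75 on the log2 scale, and HSPA5, that of the endoplasmic reticulum, rose by 0.77. HSPA14, a ribosome-associated HSP70, read 3100.0 and 3151 in Ctrl and 1360.0 and 1311 in No glucose under ENSG00000187522 (-1.23 ± 0.06, adjusted p = 1.0e-07). An overlapping second identifier of the same symbol, ENSG00000284024, did not pass (-0.05), so reads may be divided between them.

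Of 14 nucleotide exchange factors, 3 rose, 9 fell and 2 did not pass, with a median of -0.44, beside 18.9% higher, 47.2% lower and a median of -0.20 in the protein-coding background. The calls of HSPA4L (0.51) and HYOU1 (-0.35) were lost without CTRL_7. HSPH1, the inducible HSP110, read 10563.1 and 10631 in Ctrl and 26193 and 24097 in No glucose (1.25 ± 0.05, adjusted p = 3.7e-08). BAG3, an inducible factor that links HSP70 to autophagy, read 72.8 and 69.6 in Ctrl and 168 and 139 in No glucose (1.09 ± 0.16, adjusted p = 0.00021). Neither pair of groups overlapped. Among the 9 that fell were HSPBP1 (-0.95), GRPEL1 (-0.92), BAG2 (-0.75), GRPEL2 (-0.69) and HSPA4 (-0.68). Of these, GRPEL1 and GRPEL2 are the exchange factors of mitochondrial HSPA9.

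Of 3 J proteins with other names, SEC63, a partner of the protein channel of the endoplasmic reticulum, rose (0.31), and GAK and HSCB did not pass. The call of SEC63 was lost without CTRL_7 (adjusted p = 0.14) or CTRL_8 (adjusted p = 0.051). Of 3 heat shock factor genes, HSF2 was called lower and the other two did not pass. HSF1, the main heat shock factor, read 1479.8 and 1329.6 in Ctrl and 1133 and 1560.3 in No glucose, and its groups overlapped (-0.08 ± 0.12, adjusted p = 0.68). HSF2 was at -0.35 ± 0.07, a call lost with library totals and without a control library, and HSF4 was at -0.02 ± 0.27. RNA levels do not report the activity of these factors.

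**Figure D5:**
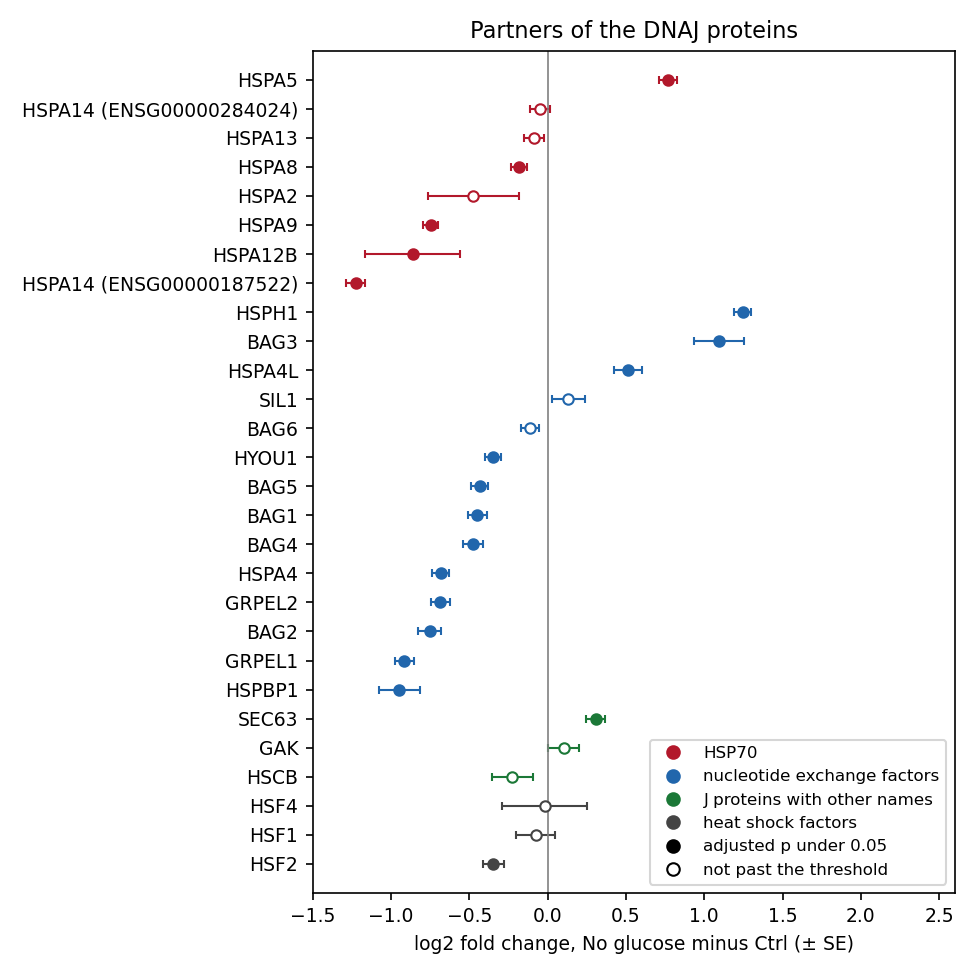
Log2 fold change, No glucose minus Ctrl, with the standard error as bars, of tested HSP70 genes, nucleotide exchange factors, J proteins with other names and heat shock factors; filled points passed the adjusted p threshold of 0.05, and HSPA6 and HSPA1A, at 0 in both controls, are left out. HSPH1 at 1.25 and BAG3 at 1.09 lie farthest to the right.

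Noncoding transcripts and retrocopies named after members share sequence or position with them. DNAJB5-DT, divergent from the DNAJB5 promoter, read 3.43 and 2.68 in Ctrl and 27.3 and 11.2 in No glucose (2.20 ± 0.51, adjusted p = 0.0057), so the controls were at a few reads and the No glucose pair was wide. DNAJC3-DT read 89.0 and 99.0 in Ctrl and 152 and 128 in No glucose (0.56 ± 0.15, adjusted p = 0.014), a call lost without CTRL_7, CTRL_8 or ONG_9 (adjusted p = 0.17, 0.060 and 0.052). DNAJC3 itself did not pass, and the difference between the 2 was not tested. DNAJC9-AS1 read 44.7 and 49.5 in Ctrl and 27.3 and 23.9 in No glucose under ENSG00000236756 (-0.86 ± 0.24, adjusted p = 0.016). This call was kept in 7 of 12 alternative settings, and was lost with library totals and without CTRL_7, CTRL_8 or ONG_10. Another identifier of that symbol, ENSG00000227540, did not pass (-0.22). The retrocopy DNAJC19P5 read 18.2 and 14.7 in Ctrl and 50.03 and 39.3 in No glucose (1.38 ± 0.28, adjusted p = 0.0022), opposite in direction to DNAJC19. The retrocopy DNAJA1P3 read 11.3 and 8.03 in Ctrl and 3.03 and 1.40 in No glucose (-1.76 ± 0.55, adjusted p = 0.029). Its No glucose values were 2 reads and 1 read, under the floor of 3, and its call was lost without CTRL_7, CTRL_8 or ONG_10 (adjusted p = 0.24, 0.10 and 0.096). The retrocopy DNAJC19P7, with 1 to 5 reads in each library, just passed (1.68, adjusted p = 0.049) and lost its call whichever library was left out (adjusted p = 0.060 to 0.17). Reads of near-identical copies can be shared between a retrocopy and its parent, so the retrocopy values are uncertain.

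Exons of 18 of the 44 members overlap an exon of a gene on the other strand, 12 of them among the called genes. The library kit was stranded, but the strand setting of the counting was not given. DNAJB1 overlaps TECR over 211 bases, and TECR read 1301 and 1249 in Ctrl and 981 and 968 in No glucose, below DNAJB1 and in the other direction. DNAJB9 overlaps THAP5 over 183 bases, and THAP5 was called lower (-0.39). It also overlaps PNPLA8 over 99 bases, which read 1718 and 1749.6 in Ctrl and 2117 and 1893 in No glucose, higher as DNAJB9 was. The part of these overlaps in the values of DNAJB1 and DNAJB9 was not tested. DNAJC7 overlaps CNP and NKIRAS2 on the other strand, over 401 and 484 bases. CNP read 3710 and 3525 in Ctrl and 1753 and 1876 in No glucose, and NKIRAS2 1590 and 1550 in Ctrl and 1107 and 1187 in No glucose. Both were lower without glucose, as DNAJC7 was, and their part in its fall was not tested. DNAJC9 overlaps FAM149B1 over 949 bases, DNAJC2 overlaps PMPCB over 628 and DNAJC11 overlaps THAP3 over 1419, all on the other strand. FAM149B1 read 999.9 and 1067 in Ctrl and 932.5 and 931.7 in No glucose, and was not called. The part of these overlaps in the falls of DNAJC9, DNAJC2 and DNAJC11 was not tested.

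The authors' deposited table held adjusted p-values under 0.05 for 24 members. All 24 were called here in the same direction, and DNAJB12, DNAJC4 and DNAJC18 were called here only. Of the 27 calls made here, 15 were kept under all 12 alternative settings. These were DNAJA1, DNAJA3, DNAJA4, DNAJB1, DNAJB2, DNAJB4, DNAJB5, DNAJB9, DNAJC2, DNAJC8, DNAJC9, DNAJC10, DNAJC19, DNAJC21 and DNAJC22. Over those settings the log2 fold change of DNAJB1 ran from 3.06 to 3.31, that of DNAJA4 from 2.66 to 2.91, and that of DNAJA1 from -0.96 to -0.69.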

How the data were processed

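Total RNA was sequenced in 4 libraries, 2 per group, single-end, with a stranded kit, per the labels' protocols. Per the submitters' processing notes, STAR 2.6.0c, RSEM 1.3.0, DESeq2 1.18.1 and hg38 were used. The annotation release and the strand of counting are not given in the sources used here. The signal values are normalized counts, gene counts divided by 1 size factor per library, as deposited by the authors. The log2 fold changes and their errors, the score (test statistic) and the p-values deposited by the authors are those of their own comparison, used only to count their calls. The columns named ONG were taken as No glucose, since the table holds only 2 groups and the others are named CTRL.

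Repeated identifiers were dropped (60868 entries, 60609 identifiers). Dividing each library by its step gave whole reads within 0.01 for 100% of values above 0, with size factors of 2.91, 0.748, 0.660 and 0.713 for CTRL_7, CTRL_8, ONG_9 and ONG_10. Coordinates, strand and exon lengths came from GENCODE 29, which held 58457 identifiers. Chi-square per degree of freedom between the reads of a pair was 1.81 for Ctrl and 5.72 for No glucose, so no library was a copy. limma 3.58.1 (trend, two-sided, in R 4.3.3) was run on log2(normalized count + 1) for every gene whose mean reached 1, and p-values were adjusted by Benjamini-Hochberg over all of these; on this scale the change of low genes is understated. edgeR 4.0.16 and DESeq2 1.42.0 on recovered reads, TMM, library totals, other pseudocounts and filters, and leaving out each library were alternatives. limma called 3948 genes higher and 5695 lower, edgeR 3964 and 6292, and DESeq2 2436 and 4866. Floors cover counting error only.

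Values in every library are given for called class A and B members, for called class C members that changed by 0.5 or more on the log2 scale, for the highest member per length of each class, and for called partners that changed by 1 or more. Transcripts named after members and overlapping genes were chosen after their values were seen. The members, compartments, partner and marker lists were chosen with earlier results of these data known. One gene of the partner lists is not reported here.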

Additional observations from a re-analysis of the deposited data

How the results depend on the processing

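With 2 libraries per group, the calls depend on the spread of few libraries, and depth limits members under about 10 normalized counts, such as DNAJB13 and DNAJC12. Of 27486 genes tested, 9643 were called, and leaving out 1 library in turn gave 5345 to 10559, the lowest without CTRL_7 and 6101 without CTRL_8. The 3948 called higher became 6109 with library totals, 2436 with DESeq2, 2027 without CTRL_7 and 2062 without CTRL_8, and the 5695 called lower became 3318 without CTRL_7. Fewer libraries are fitted when 1 is left out, and the lone library is assumed to vary like the other group. The 1 class B gene called lower became 0 with library totals, with DESeq2 and with no filter, 2 with edgeR, and 0 to 2 with a library left out. The 3 class C genes called higher became 5 with library totals and 0 to 3 with a library left out. The 14 called lower became 8 with library totals and 7 to 16 with a library left out. The cause was not tested.

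Library totals turned the sign for DNAJB6 (0.11), DNAJB12 (0.021), DNAJC6 (0.048), DNAJC13 (0.17), DNAJC16 (0.15), DNAJC24 (0.11) and DNAJC25 (0.21). Leaving out 1 library turned it for genes that had not passed the test, with ranges of -0.037 to 0.144 for DNAJB11, -0.361 to 0.044 for DNAJC6, -0.52 to 0.12 for DNAJC12, -0.109 to 0.033 for DNAJC13, -0.126 to 0.0025 for DNAJC16, -0.097 to 0.095 for DNAJC25 and -0.017 to 0.152 for DNAJC30. Of the 27 member calls, 12 were lost without CTRL_7, 8 without CTRL_8, 0 without ONG_9 and 2 without ONG_10. No paired analysis was possible because the table's columns do not carry the labels' replicate numbers.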
